A study of Mus musculus with 8 samples.

Results

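The AP-1 and early growth response factors are 10 genes, Fos, Fosb, Fosl1, Fosl2, Jun, Junb, Jund, Egr1, Egr2 and Ier2, chosen by name from the 57132 genes of the count table. Each name stood on 1 Ensembl identifier, and all 10 were among the 16588 genes with enough reads to test. They were measured by RNA sequencing of subcutaneous KPC tumours, which model pancreatic cancer in mice. The PDT group (4 samples) came from tumour-bearing mice given Ce6@D4-EV and then light, a photodynamic therapy in which the photosensitiser chlorin e6 (Ce6) makes reactive oxygen species when lit. The PBS group (4 samples) came from mice with the same kind of tumour given buffered saline. Neither light without the agent nor the agent without light was analysed here, so the effects of agent and light cannot be told apart. The sources used here give no strain, age, tumour cell genotype or time between light and harvest. That time bears on these transcripts, which are short-lived. The labels call the tissue sorted and name no gate, and they leave unsaid whether each sample is a separate animal, so p-values measure only the spread between samples, which may be technical.

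AP-1 is a transcription factor made of 2 proteins of the basic leucine zipper class. FOS proteins bind DNA only as partners of a JUN protein, whereas JUN proteins can also pair with each other. Egr1 and Egr2 are zinc finger factors, and Ier2 is a small nuclear protein. Fos, Fosb, Jun, Junb, Egr1, Egr2 and Ier2 are immediate early genes, whose transcription is switched on within minutes by growth factors, stress and tissue handling through MAP kinases and needs no new protein. Fosl1 and Fosl2 follow later, and Jund is made more steadily.

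The promoters of Jun, Fos and Egr2 are shown because they hold motifs of kinds known from immediate early promoters. RefSeq promoter entries (GRCm38.p6) were matched for 7 of the 10 genes, and the 250 bases before the start site were searched on both strands. The window of Jun lies at chr4:95052223-95052472 on the minus strand, Fos at chr12:85473640-85473889 on the plus strand and Egr2 at chr10:67537619-67537868 on the plus strand, the middle one of 5 entries for that gene. Capitals mark the motif matches.
Jun: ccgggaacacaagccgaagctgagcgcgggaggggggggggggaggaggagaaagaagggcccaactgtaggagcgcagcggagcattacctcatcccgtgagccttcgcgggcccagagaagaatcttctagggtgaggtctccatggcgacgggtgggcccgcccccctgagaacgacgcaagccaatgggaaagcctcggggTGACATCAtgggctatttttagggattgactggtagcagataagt
Fos: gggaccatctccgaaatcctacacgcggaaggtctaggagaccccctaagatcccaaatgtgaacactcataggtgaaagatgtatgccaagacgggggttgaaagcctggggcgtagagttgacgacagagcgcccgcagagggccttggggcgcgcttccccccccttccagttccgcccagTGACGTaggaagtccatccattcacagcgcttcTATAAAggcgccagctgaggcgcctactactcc
Egr2: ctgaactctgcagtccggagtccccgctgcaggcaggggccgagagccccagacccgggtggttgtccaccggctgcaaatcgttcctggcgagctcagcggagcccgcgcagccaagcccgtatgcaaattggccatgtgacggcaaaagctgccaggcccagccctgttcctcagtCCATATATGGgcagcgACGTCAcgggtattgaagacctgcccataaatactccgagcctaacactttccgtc

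The capitals of Jun are TGACATCA, a variant AP-1 site known to bind Jun with Atf2, which begins 45 bases before the start and is found in 2.93% of 32851 promoters of the same length. Fos held the cyclic AMP response element core TGACGT at 66 bases, present in 6.47% of promoters, and TATAAA at 33 bases, present in 12.4%. Egr2 held a CArG box, the site of serum response factor, at 72 bases, a motif present in 1.47% of promoters, and the same core in reverse at 56 bases. Fosb and Fosl2 each held 1 match to the EGR motif GCGNGGGCG, present in 4.7% of promoters, at 50 and 79 bases. The AP-1 motif TGANTCA, with any base at N (6.75% of promoters), and the full element TGACGTCA (1.55%), which contains that core, were found in 0 of the 7 windows. These matches are descriptions of the letters, not of binding.

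Summed gene counts were 39026840 to 48804713 in the PDT libraries and 35742024 to 40337306 in the PBS libraries. PBS 1 stood apart from the other libraries on the first principal component, at 111.5 against −37.2 to 8.53, so the log2 differences, the counts of calls and the pair counts below were also computed without it. Epithelial markers, expected of a KPC tumour, were present in every library, with 10 of 10 genes detected and a summed level of 3218 to 6432 counts-per-million (CPM) in PDT and 3665 to 7548 CPM in PBS. Macrophage markers were higher in PDT for 14 of 14 genes, with summed levels of 5242 to 6997 CPM in PDT and 2232 to 4340 CPM in PBS and 0 of 14 genes without reads in any library. Neutrophil markers summed to 147 to 531 CPM in PDT and 72.5 to 179 CPM in PBS. In bulk RNA of a tissue, a change in the number of cells of a type and a change in RNA per cell cannot be told apart, and the part of these cells in the values below was not tested.

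None of the 10 factors passed an adjusted p of 0.05 between PDT and PBS tumours. The count was 0 of 10 in edgeR's quasi-likelihood test, in DESeq2 and in limma-voom, against 0.235%, 5.24% and 1.01% of all tested genes. At an unadjusted p under 0.05 there was 1 of 10, Jun, against 16.5% of all tested genes, and groups that did not overlap were seen for 1 of 10, again Jun, against 10.1%. Differences were positive for 7 of 10 (against 49.8% of all tested genes), and the median log2 difference was 0.21 for the factors and −0.002 for all tested genes. Whether this share, this median and these counts set the 10 factors apart from the rest of the transcriptome was not tested.

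**Figure D1:**
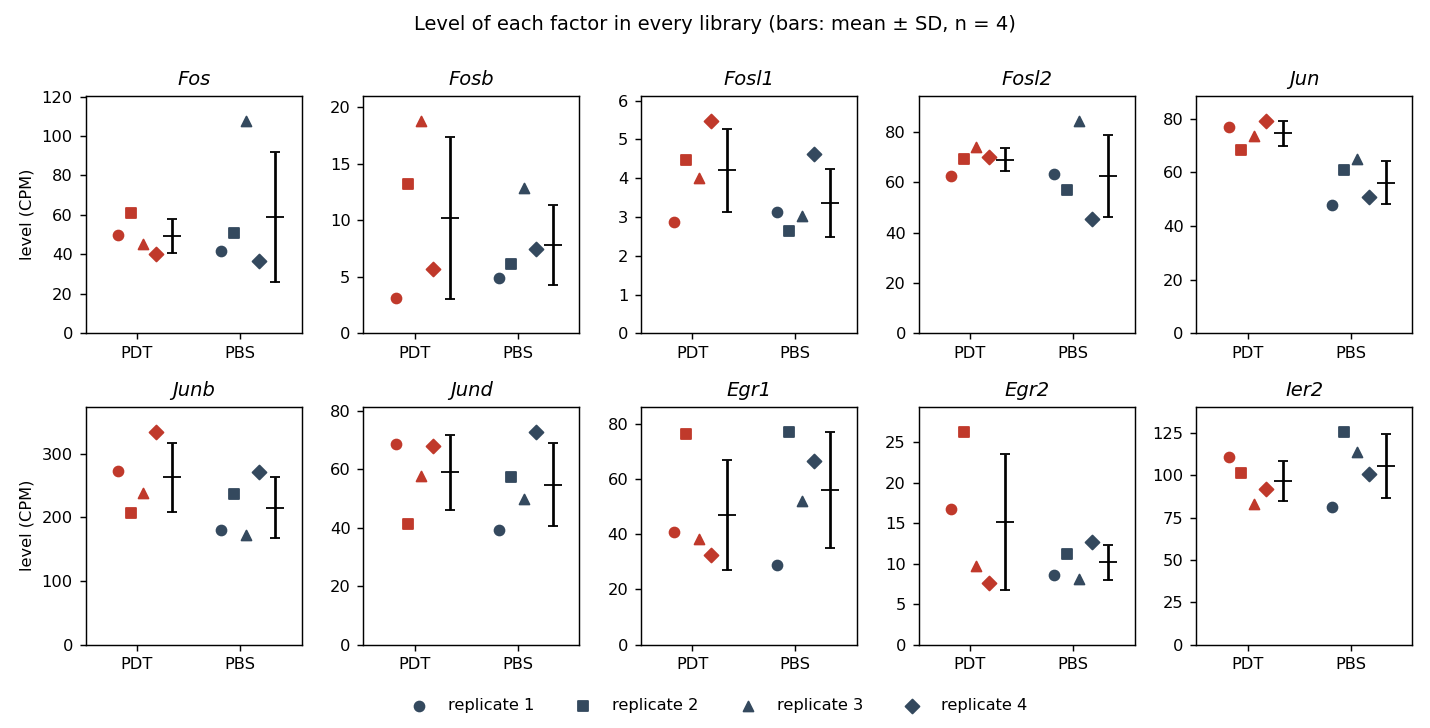
Level of each factor (CPM, linear axis from 0) in the 4 PDT and 4 PBS libraries, with marker shape giving the replicate and bars the mean ± SD. Only for Jun do all PDT points (68.5 to 79.0 CPM) lie above all PBS points (47.8 to 65.1 CPM).

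Jun (ENSMUSG00000052684), the founding JUN subunit and the target of the JNK kinases, was the factor with the clearest separation. It was at 77.0, 68.5, 73.7 and 79.0 CPM in PDT 1 to PDT 4, and at 47.8, 60.9, 65.1 and 51.0 CPM in PBS 1 to PBS 4. Every PDT library was above every PBS library, although PDT 2 and PBS 3 were only a few CPM apart. The means were 74.6 ± 4.58 CPM in PDT and 56.2 ± 8.16 CPM in PBS (SD, n = 4), a 1.33-fold difference. Its log2 difference was 0.41 ± 0.13 (SE), with a 95% interval of 0.12 to 0.70 and an adjusted p of 0.158 in edgeR. The exact permutation test gave p = 0.0286 (two-sided), the smallest that 70 assignments of 8 libraries allow, and this value was given by 1 of 10 factors tested. With 1 library left out, the log2 difference ran from 0.34 (without PBS 1) to 0.49 (without PBS 3). Over all 16 alternatives the adjusted p was 0.078 to 0.298, lowest in DESeq2. Among all tested genes 6.2% had a smaller p. Macrophage markers, which were higher in the same PDT libraries, are given above, and their part in the Jun difference was not tested.

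Junb (ENSMUSG00000052837), a JUN subunit that often restrains Jun, was the most abundant factor. It was at 272, 206, 238 and 333 CPM in PDT 1 to PDT 4 and at 179, 237, 172 and 271 CPM in PBS 1 to PBS 4. PDT 4 was the highest library, and the groups overlapped because PBS 4 and PBS 2 reached the PDT range. The log2 difference was 0.29 ± 0.18 (SE, 95% interval −0.12 to 0.69, adjusted p = 0.488 by edgeR), and leaving out PBS 4 took it to 0.43 with an unadjusted p of 0.0411 and an adjusted p of 0.27, whereas leaving out PDT 4 took it to 0.16 with an unadjusted p of 0.393 and an adjusted p of 0.814. Jund (ENSMUSG00000071076), the steadily expressed JUN subunit, was at 68.8, 41.3, 57.5 and 68.1 CPM in PDT and at 39.1, 57.3, 49.8 and 72.6 CPM in PBS. Its highest value was in PBS 4 and its lowest in PBS 1, so the PDT values lay inside the PBS range. The log2 difference of Jund was 0.11 ± 0.21 (95% interval −0.35 to 0.56), and it ran from −0.021 without PBS 1 to 0.29 without PBS 4.

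Fos (ENSMUSG00000021250), the best-known immediate early gene, showed no difference beyond the spread. It was at 50.1, 60.8, 45.4 and 40.4 CPM in PDT 1 to PDT 4 and at 41.5, 50.6, 107.6 and 36.6 CPM in PBS 1 to PBS 4. PBS 3 was far above the other libraries, and the remaining 3 PBS values lay near the PDT range. The log2 difference was −0.27 ± 0.30 (SE, 95% interval −0.92 to 0.38, adjusted p = 0.728 by edgeR), and it turned to 0.20 without PBS 3 and was −0.42 without PBS 4. Fosb (ENSMUSG00000003545), its closest relative, was at 3.10, 13.3, 18.8 and 5.72 CPM in PDT and at 4.90, 6.10, 12.9 and 7.44 CPM in PBS. The PDT libraries spanned a 6.05-fold range, with PDT 3 and PDT 2 high and PDT 1 the lowest of all 8 libraries. Its log2 difference of 0.38 ± 0.49 (95% interval −0.69 to 1.46) became −0.089 without PDT 3 and 0.73 without PBS 3.

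Fosl1 and Fosl2, which encode Fra-1 and Fra-2, lack the long activation domain of Fos. Fosl2 (ENSMUSG00000029135) was at 62.7, 69.2, 73.9 and 69.99 CPM in PDT and at 63.2, 56.9, 84.3 and 45.4 CPM in PBS. The PDT libraries were close together, and the PBS libraries lay on both sides of them, with PBS 3 the highest and PBS 4 the lowest of all. The log2 difference of Fosl2 was 0.14 ± 0.17 (SE, 95% interval −0.24 to 0.52), 0.03 without PBS 4 and 0.32 without PBS 3. Fosl1 (ENSMUSG00000024912), known as a RAS-induced subunit in carcinoma cells, was the lowest of the factors in CPM. It was at 2.88, 4.46, 4.01 and 5.47 CPM in PDT and at 3.13, 2.65, 3.02 and 4.62 CPM in PBS. In PDT, 3 of the 4 values lay above the PBS mean and the groups overlapped, with a log2 difference of 0.33 ± 0.33 (95% interval −0.40 to 1.06) that was 0.18 without PDT 4 and 0.53 without PBS 4.

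Egr1 (ENSMUSG00000038418) and Egr2 (ENSMUSG00000037868) had differences of opposite sign, each within its spread. Egr1 was at 41.0, 76.5, 38.2 and 32.3 CPM in PDT 1 to PDT 4 and at 28.8, 77.0, 51.9 and 66.6 CPM in PBS 1 to PBS 4. Among PDT libraries only PDT 2 was high, and among PBS libraries only PBS 1 was low. The log2 difference of Egr1 was −0.26 ± 0.31 (SE, 95% interval −0.94 to 0.43), −0.58 without PDT 2 and −0.062 without PBS 2. Egr2, which takes part in macrophage and lymphocyte programmes as well as in Schwann cells, was at 16.8, 26.2, 9.70 and 7.65 CPM in PDT and at 8.60, 11.2, 8.10 and 12.7 CPM in PBS. PDT 2 and PDT 1 were above all PBS libraries, while PDT 4 was below all of them. Its log2 difference was 0.57 ± 0.35 (95% interval −0.18 to 1.33, adjusted p = 0.454 by edgeR), the largest of the 10 in size, and it was 0.80 without PDT 4, at an unadjusted p of 0.0268 and an adjusted p of 0.327, and 0.18 without PDT 2.

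Ier2 (ENSMUSG00000053560) was at 111, 101, 83.1 and 91.6 CPM in PDT and at 81.4, 125, 114 and 101 CPM in PBS. PBS 2 was the highest and PBS 1 the lowest of all 8 libraries. The log2 difference was −0.12 ± 0.15 (SE, 95% interval −0.46 to 0.21), so a 2-fold change lay outside the interval, and it was −0.23 without PBS 1 and −0.026 without PBS 2. The intervals of Fos, Fosl2, Jun, Junb, Jund, Egr1 and Ier2 likewise stayed within 2-fold in either direction, while those of Fosb, Fosl1 and Egr2 reached 2.75-fold, 2.08-fold and 2.51-fold higher in PDT. Missing the threshold does not show that these factors were at the same level in both groups.

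**Figure D2:**
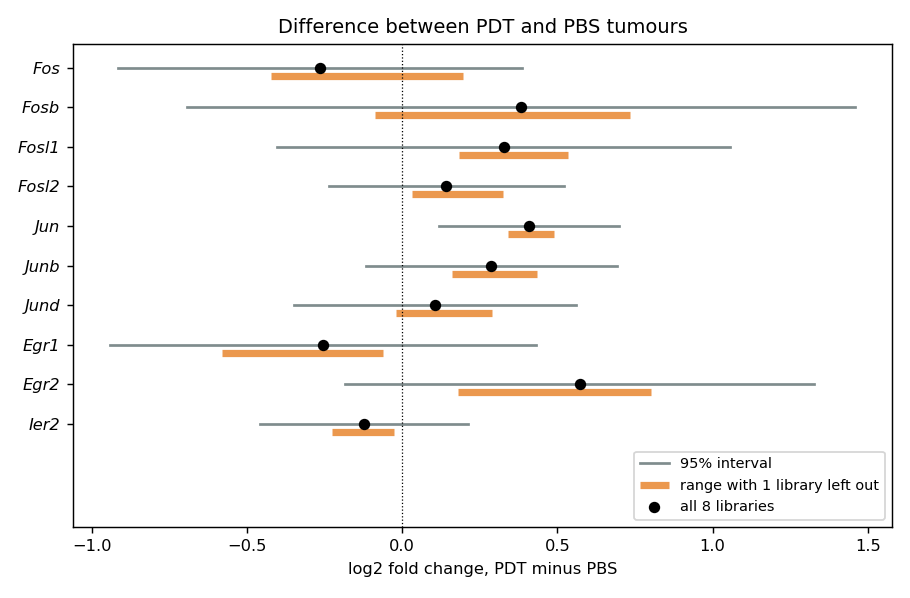
Log2 fold change (PDT minus PBS) of each factor with all 8 libraries (black point), its 95% interval (grey line) and the range with 1 library left out (orange bar). The interval lies clear of 0 for Jun alone (0.12 to 0.70), before adjustment over all genes, and the orange bars of Fos, Fosb and Jund cross 0.

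Per length, as RPKM (CPM divided by merged exon length in kilobases), the order of the factors was nearly the same in both groups. Junb was highest, at 114 ± 23.7 RPKM in PDT and 93.5 ± 20.6 RPKM in PBS (SD, n = 4). Ier2 followed with 63.5 ± 7.84 RPKM in PDT and 69.2 ± 12.4 RPKM in PBS, and Jund with 35.3 ± 7.69 RPKM in PDT and 32.8 ± 8.45 RPKM in PBS. Jun and Fos, at 23.4 ± 1.44 and 20.9 ± 3.69 RPKM in PDT and at 17.6 ± 2.56 and 25.1 ± 14.0 RPKM in PBS, were neighbours within their spread and changed places between the groups. Then came Egr1 at 10.5 ± 4.46 RPKM in PDT and 12.5 ± 4.66 RPKM in PBS, and Fosl2 at 7.12 ± 0.479 RPKM in PDT and 6.45 ± 1.69 RPKM in PBS. Egr2, Fosl1 and Fosb closed the order, from 1.64 to 4.44 RPKM in PDT and from 1.25 to 2.99 RPKM in PBS, and Fosl1 and Fosb lay within each other's spread.

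Within each family the mean mix of subunits was alike in both groups, with the widest spread for its size in Fosb. Junb made up 65.9 ± 2.12% of JUN family RPKM in PDT and 64.8 ± 3.31% in PBS (SD, n = 4). Jund made up 20.4 ± 1.91% in PDT and 22.6 ± 1.97% in PBS, and Jun 13.8 ± 1.73% in PDT and 12.6 ± 2.99% in PBS. Fos made up 65.7 ± 5.63% of FOS family RPKM in PDT and 70.9 ± 6.11% in PBS. Fosl2 made up 22.7 ± 2.85% in PDT and 19.8 ± 3.93% in PBS. Fosl1 made up 6.61 ± 2.09% in PDT and 5.58 ± 2.98% in PBS. Fosb made up 5.01 ± 3.37% in PDT, from 1.68% to 9.42%, and 3.71 ± 0.911% in PBS. These shares depend on the merged exon lengths, which were 2352 bases for Fos and 9680 for Fosl2. In CPM the mean of Fosl2 was above that of Fos, at 68.9 against 49.2 in PDT and 62.5 against 59.1 in PBS. Summed JUN RPKM exceeded summed FOS RPKM in every library. The ratio was 6.19, 3.64, 5.05 and 7.52 in PDT 1 to PDT 4 and 4.39, 5.27, 2.16 and 7.48 in PBS 1 to PBS 4. The groups overlapped in this ratio, which was lowest in PBS 3, the library with the high Fos.

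The factors varied more between libraries of a group than most genes of similar level. The biological coefficient of variation in edgeR was highest for Fosb at 0.491, followed by Fosl1 at 0.363, Egr2 at 0.355, Egr1 at 0.317 and Fos at 0.302, and lowest for Jun at 0.158, against a median of 0.249 over all tested genes. Among genes within 2-fold of the same level, Egr1 was above 97.0%, Fos above 96.2%, Fosb above 95.6% and Egr2 above 90.3%, whereas Jun was above 27.2% and Fosl1 above 29.6%. In all, 8 of the 10 factors lay above the middle of their level class. These ranks are descriptions of 8 libraries and carry no test.

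The factors did not move as 1 block from library to library. After the group mean was removed, 26 of the 45 pairs of factors had a positive Pearson correlation over the 8 libraries, with a median r of 0.07, and the number was 18 without PBS 1, with a median of −0.17. Junb and Jund were the closest pair (r = 0.88, Spearman's rho = 0.86, and r = 0.82 to 0.92 with 1 library left out), low together in PDT 2 and PBS 1 and high together in PBS 4 and PDT 4. Egr1 and Egr2 also moved alike (r = 0.75, rho = 0.71, and 0.54 without PDT 2). Fos and Fosl2 had r = 0.79 but rho = 0.31, and r was 0.22 without PBS 3, so that relation rests on PBS 3. Fos and Junb ran in opposite directions (r = −0.63, rho = −0.62), as did Fosl2 and Junb (r = −0.67, rho = −0.50). Leaving out the 2 libraries farthest from the middle of the first gene gave 0.82, 0.75, −0.31, −0.38 and −0.38 for these 5 pairs in the order given. All values of a library share its depth and its cell mix.

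**Figure D3:**
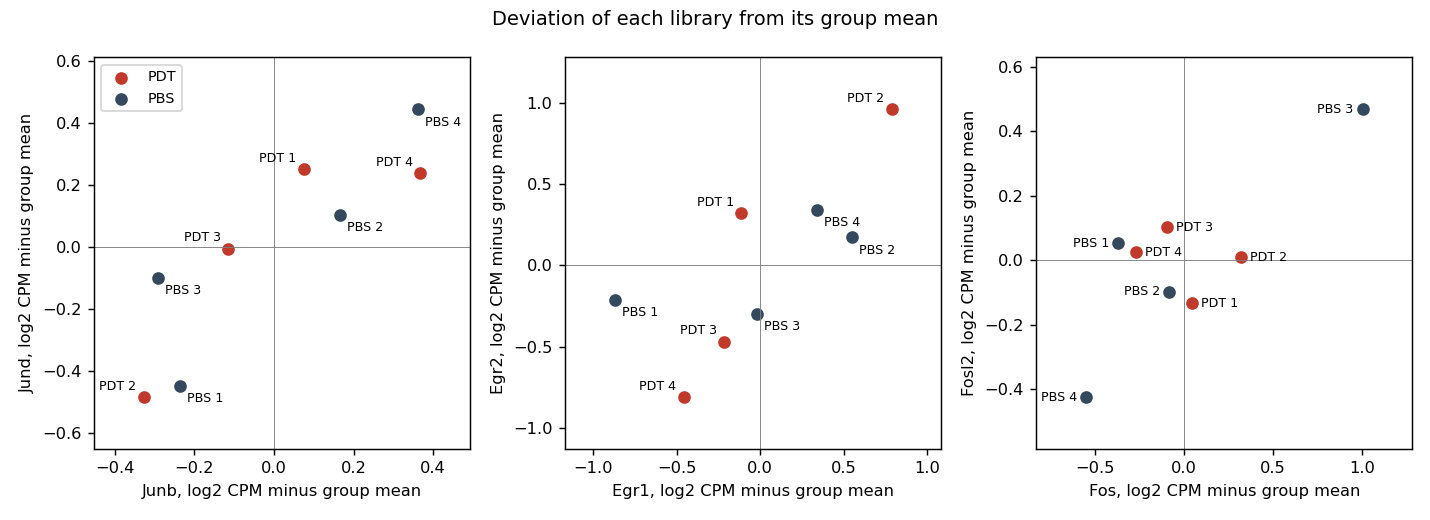
Deviation of each library from its group mean (log2 CPM) for Junb and Jund, Egr1 and Egr2, and Fos and Fosl2, with PDT libraries in red and PBS libraries in dark blue. The first panel runs along the diagonal (r = 0.88), whereas in the third PBS 3 stands alone at the upper right.

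Among 14 other basic leucine zipper genes that pair or compete with AP-1, Jdp2 rose in PDT and was the only 1 past the threshold in edgeR (1 of 14, against 0.163% of all tested genes called higher in PDT). Jdp2, the Jun dimerization protein that represses AP-1 sites, was at 26.1, 20.3, 28.3 and 26.0 CPM in PDT 1 to PDT 4 and at 12.9, 13.1, 14.0 and 14.6 CPM in PBS 1 to PBS 4. All PDT values lay above all PBS values. The log2 change of Jdp2 was 0.88 ± 0.15 (SE, adjusted p = 0.0497 by edgeR, just under the threshold). The call held in DESeq2 and limma-voom and was lost at adjusted p-values of 0.0721 to 0.163 without PBS 1, PBS 2, PBS 3, PDT 1, PDT 3 or PDT 4, at log2 changes of 0.83 to 0.90. Atf2, a known partner of Jun at the TGACATCA site of the Jun promoter, was at 88.6, 86.6, 74.9 and 62.7 CPM in PDT and at 107, 107, 112 and 111 CPM in PBS, so the groups did not overlap. Its log2 difference was −0.48 ± 0.13 (adjusted p = 0.108 by edgeR, 0.0267 at the lowest over the alternatives). Atf3, a stress-induced partner of Jun, had a log2 difference of 0.07 ± 0.22 whose sign turned without PBS 1, without PDT 1 and in limma-voom. Of the 14 genes 6 were higher and 8 lower, 6 had an unadjusted p under 0.05 (against 16.5% of all tested genes), DESeq2 called 3 (against 5.24%) and limma-voom 1 (against 1.01%).

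Partners of the EGR factors and serum response factor, which drives many immediate early promoters, showed 0 calls in edgeR, DESeq2 and limma-voom. Over all tested genes the shares called were 0.235%, 5.24% and 1.01%. Nab2, a corepressor that EGR factors induce and that then binds them, was at 19.4, 14.9, 20.9 and 25.0 CPM in PDT and at 6.61, 14.0, 12.02 and 15.7 CPM in PBS. Only PDT 2 overlapped the PBS range, and the log2 difference was 0.73 ± 0.26 (SE, adjusted p = 0.19 by edgeR). The difference of Nab2 was 0.53 without PBS 1, its lowest library, and 0.89 without PBS 4. The related corepressor Nab1 had a log2 difference of −0.42 ± 0.14 (adjusted p = 0.174). Egr3 had one of −0.14 ± 0.20. In that list 4 of 5 genes were tested, 1 was higher and 2 had an unadjusted p under 0.05, against 16.5% of all tested genes. Srf itself was at 35.6 ± 3.86 CPM in PDT and 35.2 ± 4.93 CPM in PBS (SD, n = 4), and its cofactors Mrtfb, Elk4 and Mrtfa had log2 differences of −0.33 ± 0.19, −0.21 ± 0.14 and −0.11 ± 0.13. In the serum response list 3 of 6 genes were higher and 0 had an unadjusted p under 0.05, against the same 16.5%.

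Other immediate early genes were evenly split, with 17 of 29 tested genes higher and a median log2 difference of 0.04. In edgeR 0 were called, against 0.235% of all tested genes, and 6 were at an unadjusted p under 0.05, against 16.5%. Zfp36 alone was called in DESeq2 (against 5.24% of all tested genes) and in edgeR with no count filter (adjusted p = 0.0472, against 1.95%), and limma-voom called 0 (against 1.01%). Without PBS 1 the median was −0.024, with 14 of 30 genes higher. Zfp36, which encodes the mRNA-destabilising protein tristetraprolin, was at 26.1, 26.6, 36.2 and 32.6 CPM in PDT and at 17.0, 19.8, 18.9 and 21.7 CPM in PBS. The groups of Zfp36 did not overlap, and its log2 difference was 0.65 ± 0.16 (SE, adjusted p = 0.0906 by edgeR, 0.013 to 0.2 over the alternatives). Gadd45b, a stress-response gene upstream of the MAP kinases p38 and JNK, had a log2 difference of 0.50 ± 0.17 (adjusted p = 0.17) with no overlap. Klf10, a TGF-beta-induced repressor, had one of −0.36 ± 0.12 (adjusted p = 0.178). Nr4a1, an immediate early nuclear receptor, was at 20.8, 42.0, 44.4 and 24.0 CPM in PDT and at 23.2, 32.4, 28.3 and 23.7 CPM in PBS. Its high libraries, PDT 2 and PDT 3, were also the PDT libraries with high Fosb.

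Genes that damp MAP kinase signalling were lower in PDT for 15 of 16 members, with a median log2 difference of −0.37, against −0.002 for all tested genes. In edgeR 0 of 16 passed, against 0.235% of all tested genes, and 6 were at an unadjusted p under 0.05, against 16.5%. DESeq2 called Dusp4, Dusp6, Spred1 and Spry4 (4 of 16, against 5.24% of all tested genes), limma-voom called 0 (against 1.01%), and edgeR with no count filter called Dusp4 (adjusted p = 0.0202, against 1.95%). Dusp4, a nuclear MAP kinase phosphatase, was at 41.6, 28.4, 35.9 and 44.0 CPM in PDT and at 42.4, 61.6, 64.1 and 94.1 CPM in PBS. Only PBS 1 overlapped the PDT range, and the log2 difference was −0.81 ± 0.22 (SE, adjusted p = 0.11 by edgeR). Spry4 and Spred1, inhibitors of RAS to ERK signalling, had log2 differences of −0.76 ± 0.21 and −0.44 ± 0.13 (adjusted p = 0.112 and 0.124). Dusp6, the ERK phosphatase that ERK itself induces, was at 125, 142, 112 and 112 CPM in PDT and at 136, 190, 162 and 193 CPM in PBS, a log2 difference of −0.47 ± 0.14 (adjusted p = 0.138). Dusp1, an immediate early phosphatase, had one of −0.26 ± 0.14 (adjusted p = 0.371). The MAP kinases and their activators had 7 of 21 tested genes higher and a median of −0.10, with 2 at an unadjusted p under 0.05 (against 16.5% of all tested genes). Of these kinases and activators 0 were called in edgeR, DESeq2 and limma-voom, against 0.235%, 5.24% and 1.01%. Their smallest p-values belonged to Rps6ka3 at −0.38 ± 0.13, Map2k1 at −0.31 ± 0.12 and Rps6ka5 at −0.54 ± 0.26.

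Textbook targets of AP-1 were lower in PDT for 14 of 19 tested genes, with a median log2 difference of −0.26. Of these genes 0 passed in edgeR, against 0.235% of all tested genes, and 7 were at an unadjusted p under 0.05, against 16.5%. DESeq2 and limma-voom each called Cd44, Ereg and Hbegf (3 of 19, against 5.24% and 1.01% of all tested genes). With no count filter edgeR called these and, higher in PDT, Mmp9 and Hmox1 (5 genes at log2 changes of −0.99, −0.61, −0.65, 1.79 and 1.01 for Ereg, Cd44, Hbegf, Mmp9 and Hmox1, against 1.95% of genes). It called Mmp9 and Hmox1 without PDT 2 (2 of 19, against 0.656%) and Mmp9 with a replicate block (1 of 19, against 1.10%). Cd44, the hyaluronan receptor, was at 371, 382, 449 and 365 CPM in PDT and at 485, 639, 676 and 614 CPM in PBS. Its groups did not overlap, and the log2 difference was −0.62 ± 0.13 (SE, adjusted p = 0.0726 by edgeR, 0.00105 to 0.203 over the alternatives). Hbegf, a ligand of the EGF receptor, was at 45.6, 43.6, 34.9 and 37.1 CPM in PDT and at 55.2, 57.9, 67.1 and 74.5 CPM in PBS, again without overlap, and its log2 difference was −0.66 ± 0.14 (adjusted p = 0.0726). Ereg, another ligand of that receptor family, was at 14.4, 15.1, 15.0 and 13.2 CPM in PDT and at 18.4, 30.9, 40.6 and 25.7 CPM in PBS, a log2 difference of −1.004 ± 0.22 (adjusted p = 0.0726). Mmp9, a matrix protease that neutrophils and macrophages also make, went the other way, with 108 ± 53.3 CPM in PDT and 31.3 ± 22.0 CPM in PBS and a log2 difference of 1.78 ± 0.48 (adjusted p = 0.104), and it and Hmox1, the heme oxygenase, were named after their values were seen.

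Heat shock genes, which respond to tissue handling as immediate early genes do, had 4 of 12 members higher and a median log2 difference of −0.09. In edgeR 0 were called, against 0.235% of all tested genes, and 3 were at an unadjusted p under 0.05, against 16.5%. The number higher was 2 without PBS 1, PBS 2 or PDT 4 and 6 without PBS 4. DESeq2 called Hspa1a and Hspa1b (2 of 12, against 5.24%), and Hspa1b was called in limma-voom (against 1.01%) and in edgeR with no count filter (adjusted p = 0.0148, against 1.95%). Hspa1b was at 20.7, 20.9, 13.0 and 16.9 CPM in PDT and at 22.6, 37.8, 32.02 and 37.7 CPM in PBS. The groups did not overlap, and its log2 difference was −0.87 ± 0.21 (SE, adjusted p = 0.089 by edgeR). Hspa1a had one of −1.21 ± 0.31 (adjusted p = 0.0985), and reads of this near-identical pair of genes may be split between them. Hsp90aa1 had one of −0.33 ± 0.15 (adjusted p = 0.273). Summed over the list, heat shock genes were at 6176 to 6883 CPM in PDT and 6023 to 8243 CPM in PBS, overlapping ranges, and the part of tissue handling in the values of the factors was not tested.

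**Figure D4:**
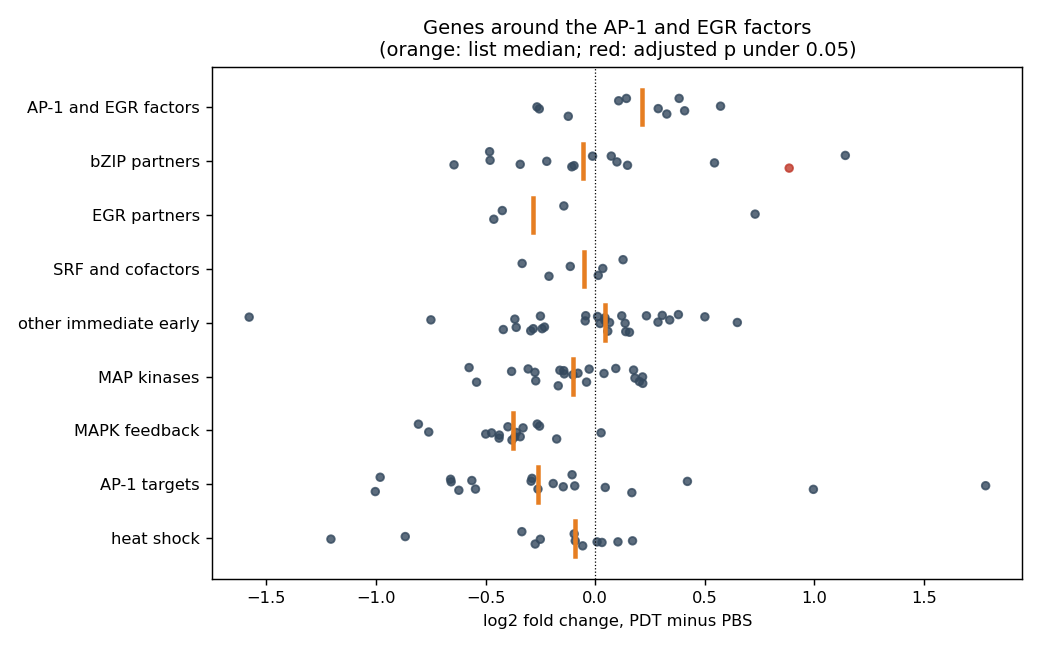
Log2 fold change (PDT minus PBS) of every tested gene of the AP-1 and EGR factors and of 8 lists around them, with the list median in orange. Jdp2 (0.88) is the 1 red point, past an adjusted p of 0.05, and the MAP kinase feedback genes lie to the left of 0 except for 1.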

How the data were processed

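Ribosomal RNA was removed and directional libraries were made, per the labels' protocols. The authors deposited raw read counts per gene. Cutadapt 4.6, STAR 2.7.11b and the GRCm39 build come from the submitters' processing notes. How reads were counted, with which strand setting and annotation, is not given in the sources used here. Genes overlapping a neighbour are therefore uncertain. Between 77.9% and 83.8% of gene counts from 1 to 20 were even, as when both reads of a pair are counted. The 484 rows without a symbol held 0.0128% to 0.0176% of reads.

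Counts were filtered with filterByExpr (0.0694% to 0.109% of reads removed), scaled by TMM and tested with edgeR 4.0.16 (quasi-likelihood, PDT minus PBS, no covariate, R 4.3.3), adjusted by Benjamini-Hochberg over 16588 genes at a threshold of 0.05. The SE is the log2 difference over the root of F, and 95% intervals use it with the fit's degrees of freedom. Log2 CPM values have a prior count of 2. RPKM uses merged exon lengths of GENCODE M21 (GRCm38), matched by identifier. The fit was tested on simulated data. A chi-square test of each of the 28 pairs of libraries gave 62.1 to 191 per degree of freedom, far from copies. The factors, the 17 gene lists (212 entries) and the tests were chosen with earlier results of these data known. Genes named beside the factors were the 3 with the smallest p of each pathway or heat shock list, 8 set in advance (Atf3, Egr3, Nab2, Srf, Nr4a1, Zfp36, Dusp1 and Dusp6), and the 8 most like the mean of the factors among genes of at least 5 CPM, predicted genes left out. Of these, 1 gene is not reported here.

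Alternatives were RLE and upper quartile scaling, no filter, 1 CPM in 4 libraries, a replicate block, DESeq2 1.42.0, limma-voom (limma 3.58.1) with quality weights, counts divided by 2, a prior count of 0.5 and each library left out.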

Additional observations from a re-analysis of the deposited data

How the results depend on the processing

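The count of factors past the threshold was 0 under all 16 alternatives to the edgeR fit, and 157 of 160 differences of a factor kept their direction and their side of the threshold. The 3 that turned were Fos at 0.20 without PBS 3 (−0.42 to 0.20 with 1 library left out), Fosb at −0.089 without PDT 3 (−0.089 to 0.73) and Jund at −0.021 without PBS 1 (−0.021 to 0.29). Atf3 turned to −0.014 in limma-voom and ran from −0.15 to 0.20 with 1 library left out, and Srf from −0.056 to 0.097, below 0 without PBS 3, PBS 4, PDT 2 or PDT 4. The number of genes called over all, 39, was 69 with upper quartile scaling, 534 with no filter, 88 with 1 CPM in 4 libraries, 869 in DESeq2, 167 in limma-voom and 67 with counts divided by 2, and 0 to 122 with 1 library left out. It was 0 without PBS 3 and without PDT 1, where 2349 and 2162 genes had an unadjusted p under 0.05. The cause of these moves was not tested. With the replicate number as a block it was 182. Libraries with the same number did not deviate together (r = 0.04, 0.07, 0.04 and 0.05 for numbers 1 to 4, across genes). No library correlated best with the one of its own number, and the number was not treated as a pairing in the main fit. Counting error was largest for Fosl1, with 111 to 224 reads per library, and Fosb, with 140 to 842.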

Other observations

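Among 11063 other genes of at least 5 CPM, those whose deviations from the group mean were most like the mean of the 10 factors over the 8 libraries were Slc38a1, an amino acid transporter (r = 0.98), Tdg, a DNA glycosylase (r = 0.97), Pdk2, a kinase of pyruvate dehydrogenase (r = 0.96), Ttc21b (r = 0.96), Nup210, a nuclear pore protein (r = 0.95), Bcas3 (r = 0.95), Ing3 (r = 0.95) and Nadsyn1 (r = 0.95). With 1 library left out their r ran from 0.859 to 0.989. These are the highest of 11063 values over 8 libraries and are given as a description. Of the 17 lists, compared in the same way, other immediate early genes had r = 0.83 with the mean of the factors (0.50 without PBS 1 to 0.995 without PDT 1), MAP kinase feedback genes r = 0.69 (0.21 without PBS 1 to 0.94 without PBS 3) and basic leucine zipper partners r = −0.72 (−0.88 without PBS 4 to −0.64 without PBS 1). The other 14 lists had r from −0.59 to 0.47, and the sign turned for 10 of them with 1 library left out. These ranges were added after the data were seen.

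Of the remaining marker lists, T and NK cell genes were higher in PDT for 10 of 11, fibroblast genes for 6 of 10, endothelial genes for 5 of 9, epithelial genes for 4 of 10, skeletal muscle genes for 9 of 10, red cell genes for 0 of 6 and adipocyte genes for 4 of 8. In edgeR 0 genes of these lists passed, against 0.235% of all tested genes. In the same order 2, 3, 1, 0, 3, 4 and 0 had an unadjusted p under 0.05, against 16.5%. Some counts of higher genes rested on single libraries. Without PDT 2 the muscle count was 4 of 10, with a median log2 difference of −0.29, against 1.62 with all libraries. The adipocyte count was 0 of 8 without PDT 3 and 8 of 8 without PBS 2. The epithelial count was 8 of 10 without PBS 3. Red cell genes stayed at 0 of 6 with any 1 library left out. In edgeR the macrophage list had 1 of 14 genes past the threshold, against 0.235% of all tested genes. It had 10 at an unadjusted p under 0.05, against 16.5%. The neutrophil list had 0 of 8 tested genes past the threshold and 6 at an unadjusted p under 0.05, against the same shares.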
